A study of Daucus carota with 10 samples.

Results

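Of 36089 annotated carrot genes, 38 were high in the xylem of the taproot and low in its phloem in both purple cultivars studied. They were chosen by the measured values themselves. Levels are in FPKM, the number of fragments on a gene relative to its exon length and to the total of the library. After 1 was added to every level, the lowest of the 4 xylem libraries had to be at least 2 times the highest of the 4 phloem libraries. This ratio was reached by 43 genes. Of these, 4 were left out because every library of xylem G was at least 2 times every library of xylem E, and 1 because the study lists it among its named gene families. The 43 genes were 0.212% of the 20318 annotated genes whose mean reached 1 FPKM in any group (called expressed genes below), a share set by the criterion of choice and not a result. The mirrored ratio, phloem over xylem, was met by 155 genes. Since the 38 genes were selected on the difference between xylem and phloem, that difference is described below without a test.

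RNA of 120-day-old, greenhouse-grown taproots had been sequenced in 10 libraries, 2 biological replicates for each of 5 groups. The group CT came from entire root slices of 'H13.360IND', an orange carrot. The other groups were single tissues. Xylem E and phloem F were from the roots of 1 purple cultivar, and xylem G and phloem H from those of another, the pair being 'Purple Haze' and 'Purple 68'. The study set out to find genes behind purple pigmentation by comparing these genotypes and tissues. All sources give the tissue of each letter alike, but not the cultivar. By the library titles 'Purple Haze' is the source of E and F and 'Purple 68' of G and H, while the paper and the design text have it reversed. Letters are used for the groups here for that reason, and no statement on a named cultivar or on its colour is made. For each cultivar 10 taproots were mixed, and nothing in the labels says that replicates came from separate pools, so that p-values may measure only technical spread.

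In the carrot taproot the vascular cambium lays down secondary xylem towards the centre, the core, and secondary phloem towards the outside. Vessels of the xylem carry water and minerals upwards from the root, and sieve elements of the phloem carry sugars into it. In the storage root both tissues consist largely of parenchyma cells that hold sugars and pigments. A whole slice contains both tissues. In such bulk samples fewer cells of a type and less RNA per cell cannot be told apart. The tissue labels could be checked against a single defining marker, the APL-like gene LOC108225351, named for a regulator of phloem identity in Arabidopsis. It was listed at 4.87 and 5.83 FPKM in xylem G, at 0 and 0.0396 in xylem E, and at no more than 0.333 in any phloem library, so this marker was not higher in the tissue it is named for.

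Libraries were scaled by 13909840 to 17118786 fragments, and 23229 to 25710 loci were detected in each. Depth did not separate xylem from phloem. For the 32 members whose values corresponded to whole fragments in every library, the xylem values rested on 45 to 88743 fragments with a median of 635.5, and the phloem values on a median of 54.5. Fewer than 30 fragments lay behind 52 of their 128 phloem values and behind 0 of their xylem values. The phloem levels of the weaker members are therefore the less precise side of the ratio. The limit that a count of 0 allows, 3 fragments, corresponded to 0.0491 to 0.346 FPKM, depending on gene length and library. Replicates differed more in E (SD of the log2 difference between both libraries 0.83 over expressed genes) and H (0.79) than in F (0.63), G (0.62) and CT (0.43).

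**Figure D1:**
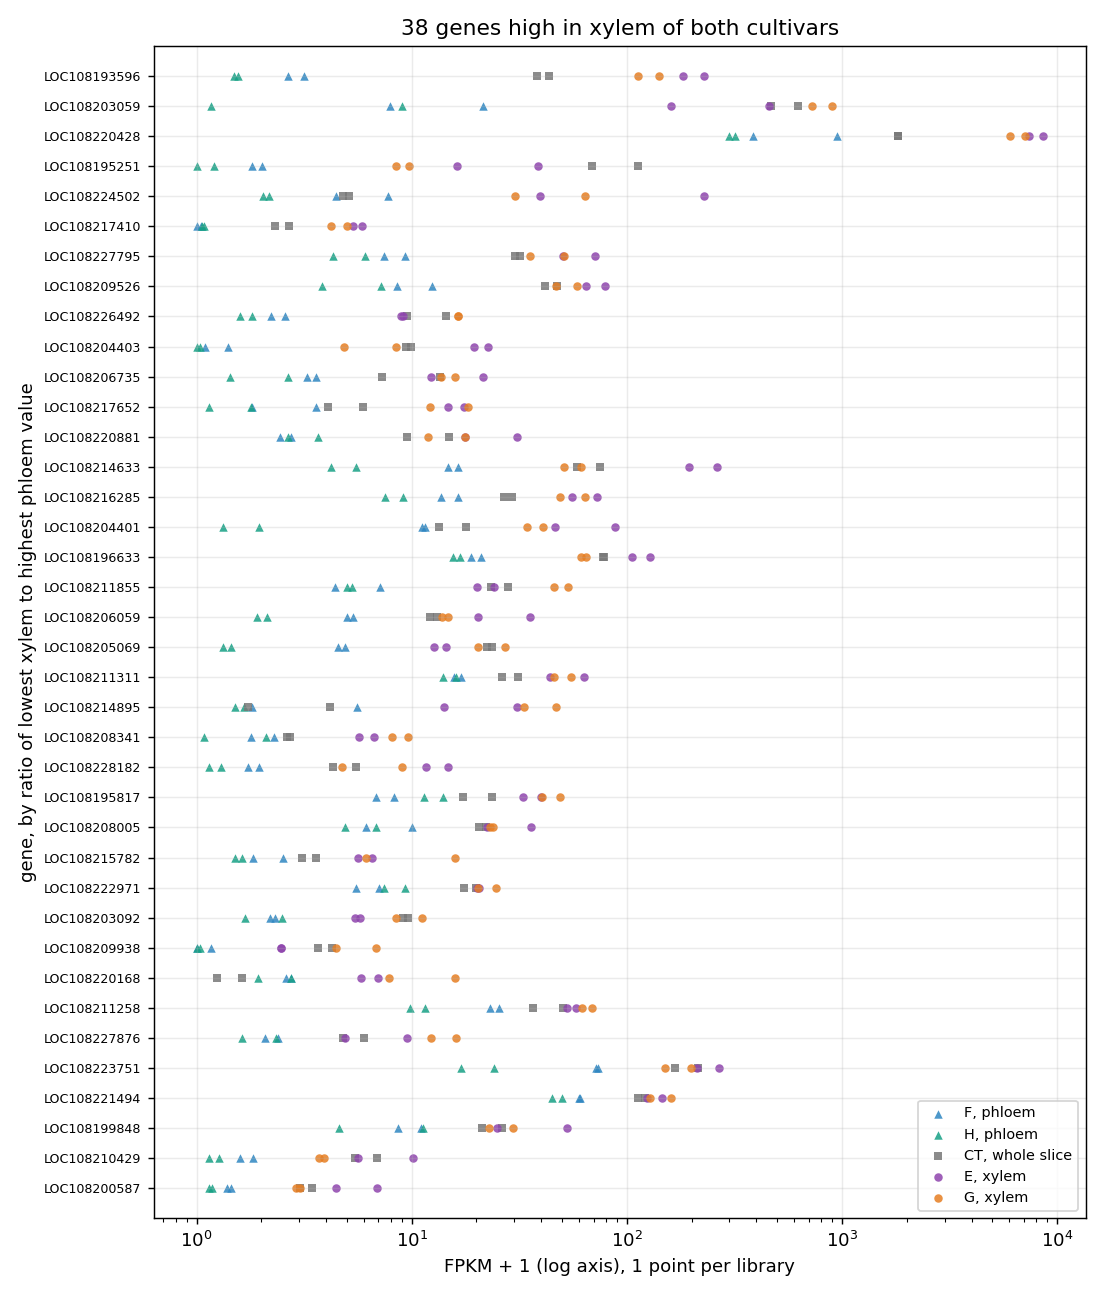
FPKM + 1 (log axis) of each of the 38 genes, 1 point per library, with genes ordered by the ratio of the lowest xylem to the highest phloem value, from 35.9 at the top to 2.002 at the bottom. Circles are xylem E and G, triangles are phloem F and H, and squares are the whole slice CT. No triangle lies to the right of a circle of the same gene, as the choice of the genes requires, and the squares fall near the circles for some genes and near the triangles for others.

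The plot of all members by library shows how unequal these genes were. Their mean xylem level ran from 3.05 to 7272 FPKM with a median of 22.9. It was under 10 FPKM for 10 genes, 10 to 50 for 14, 50 to 100 for 8 and above 100 for 6. Mean phloem levels had a median of 2.33 FPKM. Together the 38 genes took 0.668 to 0.884% of the fragments of a xylem library, 0.0481 to 0.114% of those of a phloem library and 0.328 to 0.332% in CT. The ratio of the lowest xylem to the highest phloem value had a median of 2.60, and 14 genes reached 3, whereas 11 stayed under 2.2. Most members were thus near the limit that chose them, and a few stood far above it.

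The member with the widest gap was LOC108193596, a protein-coding gene (start 22448274, end 22454965, minus strand, 797 bases of exon). Its levels were 181 and 228 FPKM in xylem E and 112 and 140 FPKM in xylem G. In phloem they were 2.15 and 1.67 FPKM in F and 0.498 and 0.563 FPKM in H. The lowest xylem value was 35.9 times the highest phloem value on the FPKM + 1 scale, and the replicates of every group lay within 1.26-fold of each other on that scale. CT, at 37.3 and 42.4 FPKM, fell between both tissues.

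LOC108203059 (start 22480402, end 22481846, plus strand) followed with a ratio of 7.46, and here the libraries of a group did not lie close together. Xylem E had 160 and 457 FPKM and xylem G 728 and 893 FPKM. Phloem F had 20.5 and 6.94 FPKM, and phloem H had 0.165 and 8.06 FPKM, the first of these from 2 fragments. That 7.78-fold distance between the libraries of H on the FPKM + 1 scale was the widest between replicates of any member. CT, with 465 and 626 FPKM, was in the range of the xylem libraries and far above all phloem libraries.

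By level, LOC108220428 (start 34301928, end 34302846, plus strand, 623 bases of exon) exceeded all other members, with 8613 and 7368 FPKM in xylem E and 7085 and 6022 FPKM in xylem G. In phloem F it had 385 and 944 FPKM, and in phloem H 299 and 317 FPKM. It ranked between 2 and 4 among all annotated genes in each xylem library, between 75 and 516 in the phloem libraries, and 12 and 13 in CT, where its levels were 1811 and 1829 FPKM. This gene held 77.6% of the summed mean xylem FPKM of the 38 members. It also had the highest mean phloem level of the 38, 486 FPKM.

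LOC108195251 is listed as a long non-coding RNA, a transcript with no annotated protein, and was the member with that class. The other 37 members were protein coding, and 4.34% of the annotated genes with a class were long non-coding RNAs. Its levels were 15.2 and 37.8 FPKM in xylem E, 7.49 and 8.68 FPKM in xylem G, and 0.809 and 1.02 FPKM in phloem F. In phloem H it was at 0.203 and 0 FPKM, where 3 fragments would be 0.295 FPKM in the library listed at 0. CT had 112 and 68.1 FPKM, above every xylem library. No other member had both CT libraries above all xylem libraries.

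LOC108224502 (start 3697630, end 3700331, minus strand) showed the opposite placement of CT. Xylem E had 228 and 38.4 FPKM, libraries 5.82-fold apart on the FPKM + 1 scale, and xylem G had 63.0 and 29.3 FPKM. Phloem F had 6.76 and 3.43 FPKM and phloem H 1.17 and 1.03 FPKM. CT, at 4.12 and 3.77 FPKM, was in the range of phloem. The size of its excess in E therefore rests mainly on 1 library, while all 4 xylem libraries were above every phloem library.

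The remaining genes among the 10 with the largest ratios had moderate or low levels. LOC108217410 was all but undetected in phloem, at 0 to 0.0827 FPKM against 3.19 to 4.86 FPKM in xylem. LOC108204403 was listed at 0 to 0.396 FPKM in phloem, and its xylem levels were 18.6 and 21.7 FPKM in E and 3.86 and 7.48 FPKM in G. These genes contrast with the next pair in being nearly silent in the outer tissue. LOC108227795 had 34.6 to 70.2 FPKM in xylem and 3.29 to 8.29 FPKM in phloem. LOC108209526 was similar, with 45.8 to 77.8 FPKM in xylem and 2.83 to 11.4 FPKM in phloem. LOC108226492 had nearly identical replicates in xylem, 7.96 and 8.08 FPKM in E and 15.5 and 15.4 FPKM in G, against at most 1.56 FPKM in phloem.

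Among the 10 members with the highest xylem levels, several retained clear expression in phloem. LOC108221494 had 123 to 160 FPKM in xylem and 43.97 to 59.4 FPKM in phloem. LOC108196633 had 60.2 to 127 FPKM in xylem and 14.5 to 19.9 FPKM in phloem. LOC108211258 had 52.0 to 68.2 FPKM in xylem, with 24.3 and 22.1 FPKM in phloem F and 8.78 and 10.5 FPKM in phloem H. These genes were lower in phloem but not switched off there. LOC108214633 and LOC108223751, which also belong to this group, are described with the differences between cultivars.

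The same genes were compared between both cultivars by the difference of tissue means in log2(FPKM + 1), a scale that understates the change of low genes. From F to E the 38 differences ran from 1.16 to 6.14 with a median of 2.199, and from H to G from 1.34 to 7.96 with a median of 2.71. The medians over all 20318 expressed genes were -0.03 and 0.20. The difference was larger in G and H for 26 members and larger in E and F for 12. The matching share over all expressed genes is not given here, and their medians lean the same way. LOC108203059 had the most unequal pair, 4.37 in E and F and 7.96 in G and H, followed by LOC108205069 with 1.52 and 4.08 and LOC108204401 with 2.50 and 4.53. In the other direction LOC108204403 differed by 4.09 in E and F and by 2.66 in G and H.

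**Figure D2:**
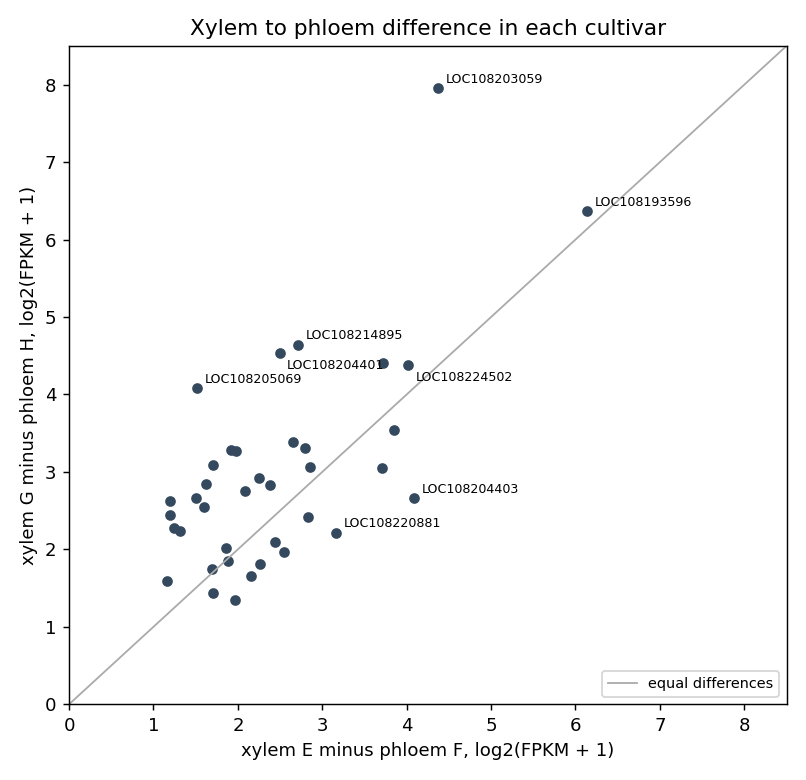
Difference between xylem and phloem in log2(FPKM + 1), E minus F on the horizontal axis and G minus H on the vertical axis, with 1 point for each of the 38 genes and a grey line of equal differences. Of the points, 26 lie above the line and 12 below it, and LOC108203059 lies farthest from it at 4.37 and 7.96.

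The highest phloem value, which sets the ratio, came from a library of F for 31 members and of H for 7. The lowest xylem value came from E for 18 and from G for 20. The matching shares over all expressed genes are not given here, so these counts cannot be set against a background. The choice used the F and H values for a common upper bound and not for the difference between them, and the counts below are a description. Both F libraries were above both H libraries for 24 members, against 25.7% of all expressed genes. Both H libraries were above both F libraries for 3 members, against 19.2%. The median of F minus H in log2(FPKM + 1) was 0.71 over the 31 members whose mean reached 1 FPKM in F or H and 0.11 over all genes that did so.

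Few of these differences passed the test. With limma on log2(FPKM + 1) and Benjamini-Hochberg adjustment over 18267 genes, 1 of these 31 members was called higher in F, where 0.531% of all genes were called in that direction. None was called higher in H, 0 of 31 against 0.832% of all genes. At an unadjusted p below 0.05 and the same fold limit, 7 members were higher in F and 0 in H. Over both directions together, 2425 of the 18267 genes passed that limit. With voom on the recovered fragments 0 members were called in either direction.

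The gene called in F against H was LOC108223751 (start 3245415, end 3247552, plus strand). Its levels were 72.4 and 70.7 FPKM in phloem F, 16.0 and 23.2 FPKM in phloem H, 210 and 266 FPKM in xylem E, 150 and 197 FPKM in xylem G, and 214 and 167 FPKM in CT. Its F minus H difference in log2(FPKM + 1) was 1.84 (SE 0.32, limma adjusted p = 0.0496), with both F libraries above both H libraries. The call is at the edge of the threshold. It was lost with voom, without the filter on low values and with quantile normalization. Over the whole table, voom called 13 genes higher in F and the fit without the filter 3, in place of 97. Losing the call in those 2 settings therefore says little of this gene, while quantile normalization called 155. The difference stayed between 1.58 and 2.10 over all 11 alternatives. The fits without 1 of the 4 libraries called 0 genes of the whole table and so say nothing of this gene's call. LOC108204401 had a larger difference, 2.82 (SE 0.50), at limma adjusted p = 0.0542, from 10.1 and 10.6 FPKM in F and 0.330 and 0.959 FPKM in H. Neither difference was separated from the threshold by more than a small margin.

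For the xylems, the choice had already removed genes with every G library at least 2 times every E library, so the side higher in G is trimmed. Both E libraries were above both G libraries for 14 members, against 16.7% of all expressed genes, and both G libraries above both E libraries for 12, against 34.9%. The median of E minus G was 0.23 over the members and -0.19 over all genes tested, and 0.35 and 0.06 after quantile normalization. With limma over 18527 genes 1 of the 38 members was called higher in E, against 1.54% of all genes. None was called higher in G, against 5.24% of all genes. At an unadjusted p below 0.05 with the fold limit, 3 members were higher in E and 3 in G. Over both directions together, 3781 of the 18527 genes passed that limit. Voom called 1 member higher in E and 0 in G, beside 180 and 643 genes of the whole table.

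The member called in E against G was LOC108214633 (start 8257825, end 8261367, plus strand). Its levels were 261 and 193 FPKM in xylem E and 59.9 and 50.1 FPKM in xylem G. Phloem F had 13.8 and 15.5 FPKM, phloem H 4.48 and 3.23 FPKM, and CT 57.8 and 73.8 FPKM. The E minus G difference in log2(FPKM + 1) was 2.01 (SE 0.25, limma adjusted p = 0.0231), and both E libraries were above both G libraries. The F minus H difference of this gene was 1.70 (SE 0.45, limma adjusted p = 0.128), again with both libraries of that cultivar above those of the other. The difference in xylem stayed between 1.80 and 2.23 over 11 alternatives, with adjusted p from 0.00112 to 0.181. The call was lost without the filter on low values, where 42 genes of the whole table were called higher in E in place of 286. It was also lost without the second library of E and without either library of G. Those fits leave 1 library in a group and called few genes of the whole table or none. This gene also overlaps LOC108214634 on the opposite strand by 341 bases, and the library kit is not stated to keep the strand, so reads of both genes cannot be told apart there. LOC108214634 had a mean of 3.35 FPKM over the xylem libraries, and no other member overlaps an annotated gene or a locus outside the annotation.

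**Figure D3:**
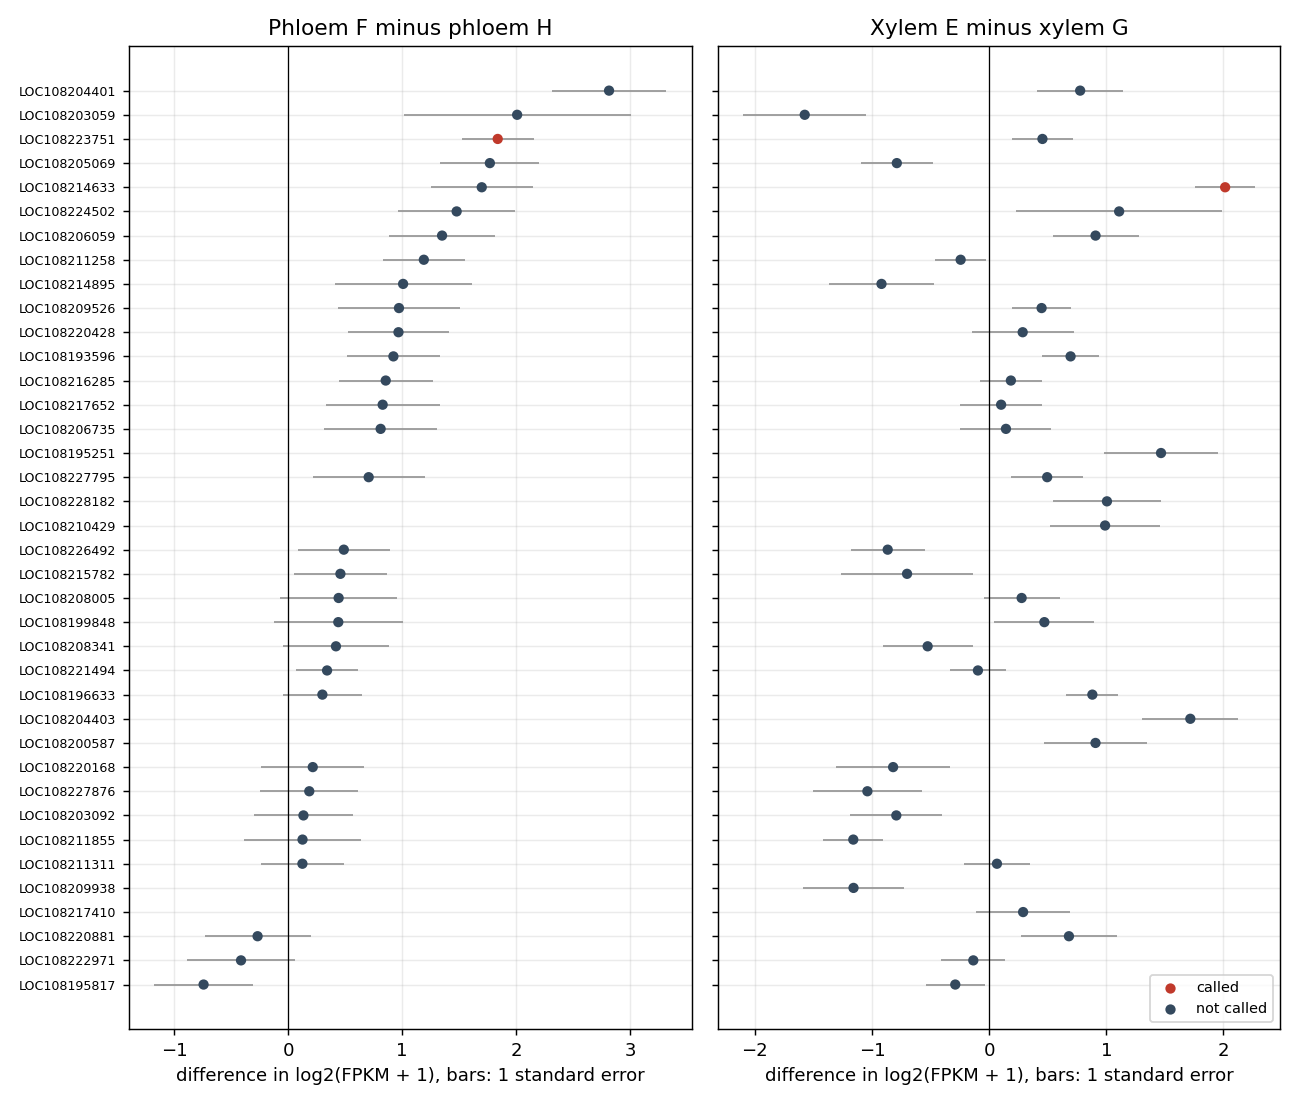
Difference between the phloems F and H (left) and the xylems E and G (right) in log2(FPKM + 1) with bars of 1 standard error from limma, for the members tested. Red marks the genes called, LOC108223751 on the left at 1.84 and LOC108214633 on the right at 2.01. On the left 28 of the 31 points are right of 0, and on the right 23 of 38. The median over all genes tested was 0.11 on the left and -0.19 on the right, where the choice had trimmed genes higher in G. The share of all genes right of 0 is not given here.

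The whole slice CT took no part in the choice of the genes and shows where an orange taproot of another cultivar stood. Both CT libraries lay between all phloem and all xylem libraries for 16 members, and overlapped with xylem libraries but not with phloem for 18. They were above every xylem library for 1, overlapped only with phloem for 2 and were below every phloem library for 1. CT was thus above all phloem libraries for 35 of 38 members, against 38.3% of expressed genes, and below all xylem libraries for 19, against 8.6%. Since the phloem values were chosen to be low and the xylem values to be high, both counts lean towards the choice and support nothing by themselves. On the way from the phloem to the xylem mean in log2(FPKM + 1), CT stood at a median of 76.6%, from -46.0% to 176%. CT was also above both tissues at the median over all genes tested, with phloem minus CT at -0.42 and xylem minus CT at -0.35. Quantile normalization brought these to -0.08 and -0.05. The member medians then became -1.40 and 0.84, in place of -1.88 and 0.63, so the place of CT depends on the normalization.

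**Figure D4:**
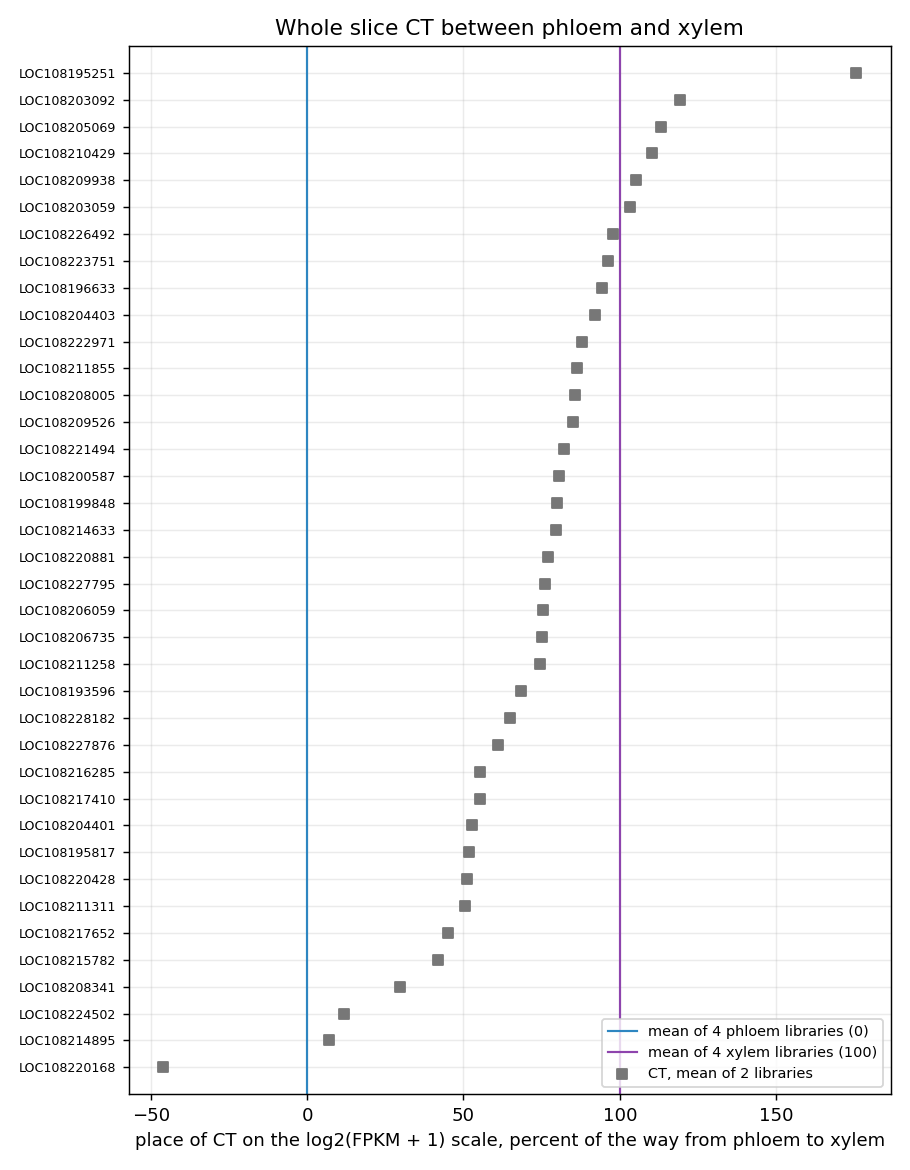
Place of the mean of both CT libraries on the log2(FPKM + 1) scale for each of the 38 genes, in percent of the way from the mean of the 4 phloem libraries (0, blue line) to the mean of the 4 xylem libraries (100, purple line). The median is 76.6%, LOC108195251 lies highest at 176% and LOC108220168 lowest at -46.0%.

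With limma over 19752 genes, 32 of 38 members were called higher in CT than in the mean of the phloems, against 14.4% of all genes, and 0 higher in phloem, against 5.44%. Against the mean of the xylems, 9 members were called higher in xylem, against 2.95% of 19657 genes, and 1 was called higher in CT, against 7.4%. At an unadjusted p below 0.05 with the fold limit, 0 members were higher in phloem than in CT. Over both directions together, 5638 of the 19752 genes passed that limit. Voom at its adjusted threshold called 0 members higher in phloem as well, beside 939 genes of the whole table. The 9 members higher in xylem than in CT were LOC108193596, LOC108204401, LOC108208341, LOC108214895, LOC108216285, LOC108217652, LOC108220168, LOC108220428 and LOC108224502. These counts also lean towards the choice, and cultivar and tissue cannot be told apart in CT. With quantile normalization 25 members were called higher in CT than in phloem, beside 1680 genes of the whole table. Against xylem, 14 members were then called higher in xylem, beside 983 genes, and 1 higher in CT, beside 813. Against xylem, the fits without 1 library of CT or of G called fewer members, and fewer genes of the whole table as well. The members' median xylem minus CT difference stayed between 0.56 and 0.64 in these fits, beside 0.63 with all libraries. Against phloem, 5 and 10 members were called without the first and the second CT library, at medians of -1.83 and -1.76 beside -1.88, and calls over all genes higher in CT fell from 2838 to 157 and 271 in the same fits.

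The direction of the long non-coding RNA LOC108195251 ran against the choice, which had taken its xylem values for being high. Its xylem minus CT difference in log2(FPKM + 1) was -2.55 (SE 0.40, limma adjusted p = 0.0184), with both CT libraries above all 4 xylem libraries. The difference stayed between -2.91 and -2.20 over 13 alternatives, with adjusted p from 0.00641 to 0.175. It was called in 9 of them and not in those without 1 library of CT or of G, where fewer genes of the whole table were called as well. The 3 members in which CT exceeded phloem most were LOC108203059, LOC108195251 and LOC108193596, with CT minus phloem differences of 6.37, 5.93 and 4.27. LOC108203059 was at the xylem level in CT, and LOC108193596 was below it.

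At the other end, 3 members were near or below the phloem level in CT. LOC108220168 (start 26749132, end 26750414, plus strand) had 0.240 and 0.633 FPKM in CT, below its 0.936 to 1.76 FPKM in phloem, and 4.79 to 14.96 FPKM in xylem. Its phloem minus CT difference of 0.81 (SE 0.27) was not called, with limma adjusted p = 0.0672. Over 13 alternatives it was 0.61 to 1.82, the latter with voom, and adjusted p was 0.0219 to 0.382. None called it, and at the lowest of these p, without the first library of H, the difference of 0.94 was under the fold limit. LOC108214895 had 0.740 and 3.16 FPKM in CT, 0.510 to 4.58 FPKM in phloem and 13.2 to 45.9 FPKM in xylem. With LOC108224502 described above, these genes were high in the xylem of both purple cultivars and low in the orange slice, although that slice contains xylem.

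Product names were not used for these genes, and most members are therefore given by number. A pathway annotation by the study named 2 of them. LOC108223751 was placed in pentose and glucuronate interconversions, with the Arabidopsis gene AT4G24780 as its match, a pectate lyase-like gene, whose products in Arabidopsis cleave pectin of the cell wall. LOC108206059 was placed in purine metabolism, with AT4G22570 as its match, an adenine phosphoribosyltransferase that recycles adenine in Arabidopsis. LOC108206059 had 19.3 and 34.6 FPKM in xylem E and 13.8 and 12.9 FPKM in xylem G, and it had 4.33 and 3.98 FPKM in phloem F and 1.13 and 0.915 FPKM in phloem H. CT, with 12.1 and 11.1 FPKM, was below all xylem libraries and above all phloem libraries.

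Both members stood in the list for G against H, which holds genes that the study had picked for a difference between these same libraries, so their presence in it is no independent evidence. Of 5 genes given there for pentose and glucuronate interconversions, LOC108223751 was the only member. LOC108199393 had 37.1 and 56.6 FPKM in xylem G but at most 1.05 FPKM in xylem E, and LOC108224700 had 7.85 and 10.9 FPKM in G and at most 0.554 FPKM in E. LOC108213026 was low throughout, at most 2.43 FPKM. LOC108193946 was higher in phloem, with 2.28 to 13.0 FPKM there and at most 1.66 FPKM in xylem. The genes of this list therefore did not share the pattern of the member in both cultivars. LOC108199393, LOC108224700 and LOC108213026 were higher in G than in H, as the member was, but were not high in E. The other gene given there for purine metabolism, LOC108193360, had 46.8 and 42.7 FPKM in phloem H and 8.64 and 8.17 FPKM in xylem G, the reverse order to LOC108206059.

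The members were spread over the genome. All 38 lay on the 9 chromosome sequences, with 1 to 10 on each, 19 on the plus strand and 19 on the minus strand. The sequence with 10 members (26.3%) held 14.0% of the expressed genes. No members were neighbours, and the closest pair, LOC108228182 and LOC108226492, was separated by 149776 bases and 26 genes. Of the 76 adjacent genes, 0 reached the ratio of 2, which 0.212% of expressed genes met, so 0 of 76 says little. A xylem minus phloem difference of at least 1 in log2(FPKM + 1) was found for 6 adjacent genes. The share of all genes with such a difference is not given here, and adjacent genes were not limited to expressed ones. The median difference of the neighbours was 0.14, beside 0.09 over expressed genes. Members had a median exon length of 1363.5 bases, and expressed genes of 1648 bases.

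Around the threshold the values changed gradually. The members just inside were LOC108200587 with a ratio of 2.002, LOC108210429 with 2.03 and LOC108199848 with 2.03. LOC108200587 had 5.91 and 3.43 FPKM in xylem E, 2.02 and 1.89 FPKM in xylem G and at most 0.442 FPKM in phloem. LOC108195266, LOC108194049 and LOC108193187 were just outside, with ratios of 1.97, 1.96 and 1.96. LOC108194049 had 5.72 and 4.66 FPKM in E, 4.22 and 6.08 FPKM in G and at most 1.66 FPKM in phloem, a pattern much like that of members. The remaining genes on both sides were of low or moderate level. LOC108210429 had 4.65 to 9.13 FPKM in E, 2.71 and 2.91 FPKM in G and at most 0.830 FPKM in phloem. LOC108199848 had 21.9 to 51.6 FPKM in xylem and 3.62 to 10.3 FPKM in phloem. LOC108195266 and LOC108193187 had phloem levels up to 0.987 and 3.08 FPKM, with xylem from 2.92 and 6.99 FPKM.

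Of the 5 genes that reached the ratio and were left out, LOC108215161 had the highest xylem level, 302 and 414 FPKM in G and 61.4 and 103.9 FPKM in E. Its phloem levels were 10.5 to 26.9 FPKM. LOC108216091, a MYB transcription factor gene that the study lists by family, had 57.9 and 26.5 FPKM in E, 16.1 and 21.6 FPKM in G and 2.09 to 6.68 FPKM in phloem. The other genes left out, LOC108222038, LOC108192836 and LOC108200638, had ratios of 2.60, 2.51 and 2.31.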

How the data were processed

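The authors aligned paired-end reads with TopHat2 2.0.12 and Bowtie2 2.2.3, counted them with HTSeq 0.6.1 and called genes with DESeq 1.18.0, as far as the submitters' processing notes name tools. The genome build is not given in the sources used here, and only starts and ends are printed. They deposited FPKM values for 36908 loci per library, 819 of them outside the annotation. The values were used as deposited. FPKM times length fell on whole steps for 75.9% of 30180 loci detected (within 0.05 of a fragment), which gave each library's fragments. Intervals and limits from fragments cover counting error only.

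The members and lists were chosen with earlier results of these data known. The genes named were the 10 members with the largest ratio, the 10 with the highest mean xylem level, the 3 with the highest and the 3 with the lowest CT minus phloem difference, those called in E against G or F against H, and 3 on each side of the threshold. Others were named after their values were seen. Groups were compared by limma-trend (limma 3.58.1, R 4.3.3) after 1 was added to each FPKM value and log2 taken. Annotated genes entered if their mean reached 1 FPKM in any group of the comparison. A call needed an adjusted p (Benjamini-Hochberg) under 0.05 and a log2 difference no smaller than 1 in either direction. Alternatives were voom on recovered fragments, a pseudocount of 0.1, no filter, quantile normalization, no fold limit, a joint fit of all 10 libraries, a block for the replicate number and leaving out each library. Gene lists and markers set by product name could not be matched, apart from LOC108225351, and promoters were not used. The reference table, of another assembly, was matched by number for all 38 members and served for their class only. Python 3.11.15, pandas 2.3.3, numpy 2.4.6 and matplotlib 3.10.9 were used.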

Additional observations from a re-analysis of the deposited data

How the results depend on the processing

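The 38 members numbered 69 with a pseudocount of 0.1 (37 shared), 93 with a ratio of 1.5 and 14 with a ratio of 3. Leaving out 1 library gave 40 to 63 genes, with 60 without the first library of E and 63 without the second of F. A library left out cannot lower the ratio of any gene, so a rise follows from the rule and does not measure stability. Calls among members in E against G (1) became 0 without the filter, 4 in 1 fit of all 10 libraries and 2 with quantile normalization. The main fit called 286 genes of the whole table higher in E and 971 higher in G. These settings called 42 and 80, 657 and 2130, and 508 and 842, in that order. Without 1 library the members' median E minus G difference was -0.05 to 0.25, beside 0.23 with all libraries. In F against H (1) the calls among members became 0 with voom and 0 without the filter. Those settings gave few calls over the whole table as well. The calls among members became 6 in 1 fit of all 10 libraries. That fit called 521 genes of the whole table higher in F and 649 higher in H, in place of 97 and 152. Without 1 library the members' median F minus H difference was 0.47 to 0.79, beside 0.71 with all libraries. In xylem against CT (10) they were 0 to 11 and in phloem against CT (32) 5 to 31 without 1 library. An arm left with 1 library was assumed to vary like the other groups. Such fits have fewer degrees of freedom, and in F against H they called 0 genes of the whole table, so the calls lost there do not show that a difference was unstable. The replicate number, which no source describes as a pairing, was also used as a block. The differences between the first and second library correlated at 0.61 in E and H but at -0.28 in E and F, -0.42 in E and G and -0.56 in G and H. The sign differed between groups, and replicate numbers need not follow the same order in each group. The signs alone therefore cannot decide whether groups shared a shift. What lies behind the correlations of E, G and H was not tested. With this block 2 members were called in E against G, beside 364 of all genes higher in E and 938 in G. In F against H 2 were called, beside 381 higher in F and 543 higher in H, in place of 97 and 152. In xylem against CT 5 were called, beside 233 higher in xylem and 462 higher in CT, in place of 579 and 1455. In phloem against CT 29 were called, beside 1001 higher in phloem and 2191 higher in CT, in place of 1074 and 2838. The cause of the other shifts was not tested. Quantile normalization moved the median over all genes from -0.35 to -0.05 in xylem against CT and from -0.42 to -0.08 in phloem against CT. Depth limits the phloem values most.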
